A study of Mus musculus with 4 samples.

Results

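The genes described here encode the vasoactive endothelin, nitric oxide and angiotensin system of the vessel wall, with a pair of arterial effectors. The 10 members were taken by gene symbol, with no measured value used: Edn1, Ednra and Ednrb (endothelin), Nos3, Gucy1a1, Gucy1b1 and Pde5a (nitric oxide and cyclic GMP), Ace and Agtr1a (angiotensin) and Kcnk3 (a potassium channel). All 10 were found among the 32285 genes counted. They were followed by cell lineage in 4 droplet-based single-cell RNA libraries, from lung and from synovium (the lining tissue of joints) of TNF+ mice and of TNF- littermates. TNF+ mice carry a human TNF transgene (kept on C57BL/6) and serve as a model of chronic erosive arthritis with pulmonary vascular disease, and TNF- mice are their wildtype littermates. All mice were 4 months old and, per the study's methods, female. Tissue was pooled by group before capture, from 3 to 5 mice for a lung library and from 5 to 10 for a synovial one, digested with enzymes and sorted for live cells. Each group is therefore 1 library without a replicate, and no difference below has a p-value or a check against the spread between mice.

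Endothelin-1, encoded by Edn1, is made by endothelium and constricts the smooth muscle beneath it through the receptor encoded by Ednra. The receptor encoded by Ednrb clears endothelin and, on endothelium, releases dilators. Nitric oxide made by the enzyme that Nos3 encodes diffuses into muscle cells and pericytes, where soluble guanylate cyclase, a pair of an alpha and a beta subunit from Gucy1a1 and Gucy1b1, makes cyclic GMP, which the phosphodiesterase from Pde5a breaks down. Angiotensin-converting enzyme, from Ace, sits on the endothelial surface and is abundant in lung capillaries. It makes the angiotensin II that acts on the receptor from Agtr1a. Kcnk3 encodes a leak potassium channel of pulmonary arterial muscle. Several of these proteins are targets of drugs for pulmonary hypertension or high blood pressure.

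On build GRCm38, Edn1 lies on the plus strand at chr13:42301476-42307990, and Ednra and Ednrb on the minus strand at chr8:77663031-77724464 and chr14:103814625-103844402. Nos3 and Kcnk3 lie on the plus strand at chr5:24364810-24384474 and chr5:30588170-30625271, Ace at chr11:105967945-105989964, Agtr1a at chr13:30336441-30382867 and Pde5a at chr3:122728947-122859374, all on the plus strand. Gucy1a1 (chr3:82092427-82145789) and Gucy1b1 (chr3:82032006-82074689) are neighbours on the minus strand, 17.738 kb apart. The counts take in exons and introns. The count reference also holds Gm48161 on the same strand inside the Agtr1a span, so that reads there are hard to assign to Agtr1a. Genes on the opposite strand overlap Edn1, Ednra, Nos3, Ace, Kcnk3 and Pde5a, and no other counted gene overlaps Ednrb, Gucy1a1 or Gucy1b1.

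Promoters are shown for Edn1, whose endothelial level was lower in TNF+ lung and higher in TNF+ synovium, and for the neighbouring cyclase subunits, whose levels differed between TNF- and TNF+ mural cells by similar ratios. Each is 300 bases, 250 before and 50 after a RefSeq start on GRCm38.p6, read 5′ to 3′ on the gene's strand: chr13:42301226-42301525 (plus) for Edn1, chr3:82145601-82145900 (minus) for Gucy1a1 and chr3:82074662-82074961 (minus) for Gucy1b1. Capitals mark a CCAAT box (CCAAT, or ATTGG on the other strand) or a GATA motif (GATAA, or TTATC on the other strand).
Edn1: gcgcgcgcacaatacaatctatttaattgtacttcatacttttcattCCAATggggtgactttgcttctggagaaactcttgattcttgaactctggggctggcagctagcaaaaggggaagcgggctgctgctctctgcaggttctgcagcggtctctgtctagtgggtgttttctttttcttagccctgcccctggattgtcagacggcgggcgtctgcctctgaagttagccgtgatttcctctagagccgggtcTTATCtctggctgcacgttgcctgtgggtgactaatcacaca
Gucy1a1: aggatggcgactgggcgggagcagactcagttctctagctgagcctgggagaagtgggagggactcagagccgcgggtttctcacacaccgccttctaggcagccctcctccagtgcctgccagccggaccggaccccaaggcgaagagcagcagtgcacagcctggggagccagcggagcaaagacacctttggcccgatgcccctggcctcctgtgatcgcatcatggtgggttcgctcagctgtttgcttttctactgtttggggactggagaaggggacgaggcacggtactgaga
Gucy1b1: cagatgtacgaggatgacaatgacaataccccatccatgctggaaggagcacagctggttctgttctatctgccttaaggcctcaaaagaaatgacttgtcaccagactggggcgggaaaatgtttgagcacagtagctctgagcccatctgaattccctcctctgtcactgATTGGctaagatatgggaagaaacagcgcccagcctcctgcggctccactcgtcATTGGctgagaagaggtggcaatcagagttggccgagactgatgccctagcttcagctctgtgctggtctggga
Of the 10 members, 7 matched the RefSeq promoter table, with 9 promoters in all. Nos3, Agtr1a and Kcnk3 had no entry. The letters of 4 motifs were searched on both strands, the GATA motif GATAA, the CCAAT box CCAAT, the AP-1 motif TGANTCA and the CArG box, the last known from smooth muscle promoters. The Edn1 window holds 1 GATA motif and 1 CCAAT box, and the Gucy1b1 window holds 2 CCAAT boxes. The Gucy1a1 window holds none of the 4, and no member's window holds an AP-1 motif or a CArG box. Among all 32851 promoters of this length, 25.4% hold the GATA motif, 37.4% the CCAAT box, 7.81% the AP-1 motif and 1.63% the CArG box. These matches describe letters only.

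The lung libraries held 8555 (TNF-) and 11243 (TNF+) barcodes and the synovial ones 6899 (TNF-) and 4246 (TNF+), with 48454234 to 155989523 UMIs (unique molecular identifiers, each 1 counted RNA molecule), and 3152 to 9174 cells per library passed the study's limits. Pairs of libraries shared 5 to 21 barcodes. Endothelial cells were 32.5% of the TNF- lung and 4.29% of the TNF+ lung, and myeloid cells 15.6% and 54.6%. Fibroblasts were 55.5% of the TNF- synovium and 8.19% of the TNF+ synovium, and endothelium 10.3% and 14.2%. These shares leave out unnamed clusters, 3.92% of the TNF- and 16.5% of the TNF+ synovium. With those given their nearest name, TNF+ fibroblasts were 489 in place of 258 cells and endothelial cells 597 in place of 448. In TNF- they were 3446 in place of 3444 and 715 in place of 636. The 394 TNF+ lung endothelial cells were shallow, with a median of 785 UMIs against 5629 in TNF- cells, and lung mural cells (smooth muscle cells and pericytes) had medians of 651 and 5963. Pecam1, a defining endothelial gene, had a UMI in 91.6% of TNF- and 58.6% of TNF+ lung endothelial cells and in over 93% of synovial ones. Pdgfrb, which marks mural cells, was at 330 to 687 UMIs per 1000000 UMIs of all genes (CPM) in mural cells of the 4 libraries. It had a UMI in 70.5% of TNF- and 41.0% of TNF+ lung mural cells and in 89.0% and 73.6% of synovial ones. Acta2, of smooth muscle, was in 63.6% and 20.5% of lung mural cells and in 77.7% and 88.8% of synovial ones. Rgs5, of pericytes, was in 9.30% and 9.02% of lung mural cells and in 80.5% and 53.6% of synovial ones. Markers of myeloid cells were higher in the TNF+ lung vessel wall: the myeloid list of 48 genes summed to 1946 CPM (44 detected) in TNF- and 3813 CPM (41 detected) in TNF+ lung endothelium, and to 524 CPM (29 detected) and 6062 CPM (38 detected) in lung mural cells. The part of these in the lung differences below was not tested. The 95% intervals given with CPM (exact Poisson), shares (Clopper-Pearson) and log2 ratios of TNF+ over TNF- (conditional binomial) cover counting error only.

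The lineage with the highest level differed between members. In the TNF- lung 4 members (Edn1, Ednrb, Nos3 and Ace) had their highest CPM in endothelium and the other 6 in mural cells, among lineages with at least 50 cells. The TNF- synovium had 2 members highest in endothelium (Edn1 and Nos3), 7 in mural cells and Ace in fibroblasts. In both TNF+ libraries 6 members were highest in mural cells. In the TNF+ lung the mural interval overlapped that of endothelium for Ednrb, of fibroblasts for Agtr1a and of megakaryocytes for Gucy1b1. Ednrb there was highest in endothelium with doublets removed, with each library clustered by itself and by UMIs per cell. Edn1 and Nos3 were again highest in endothelium. The others were Ace in lung, highest in myeloid cells, Ednra in lung, highest in fibroblasts, and in synovium Ace, highest in endothelium, and Agtr1a, highest in fibroblasts. For Ednra in lung and Agtr1a in synovium the fibroblast interval overlapped that of mural cells. Synovial Agtr1a was highest in mural cells with a mean over cells, after thinning and with the stricter filter.

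**Figure D1:**
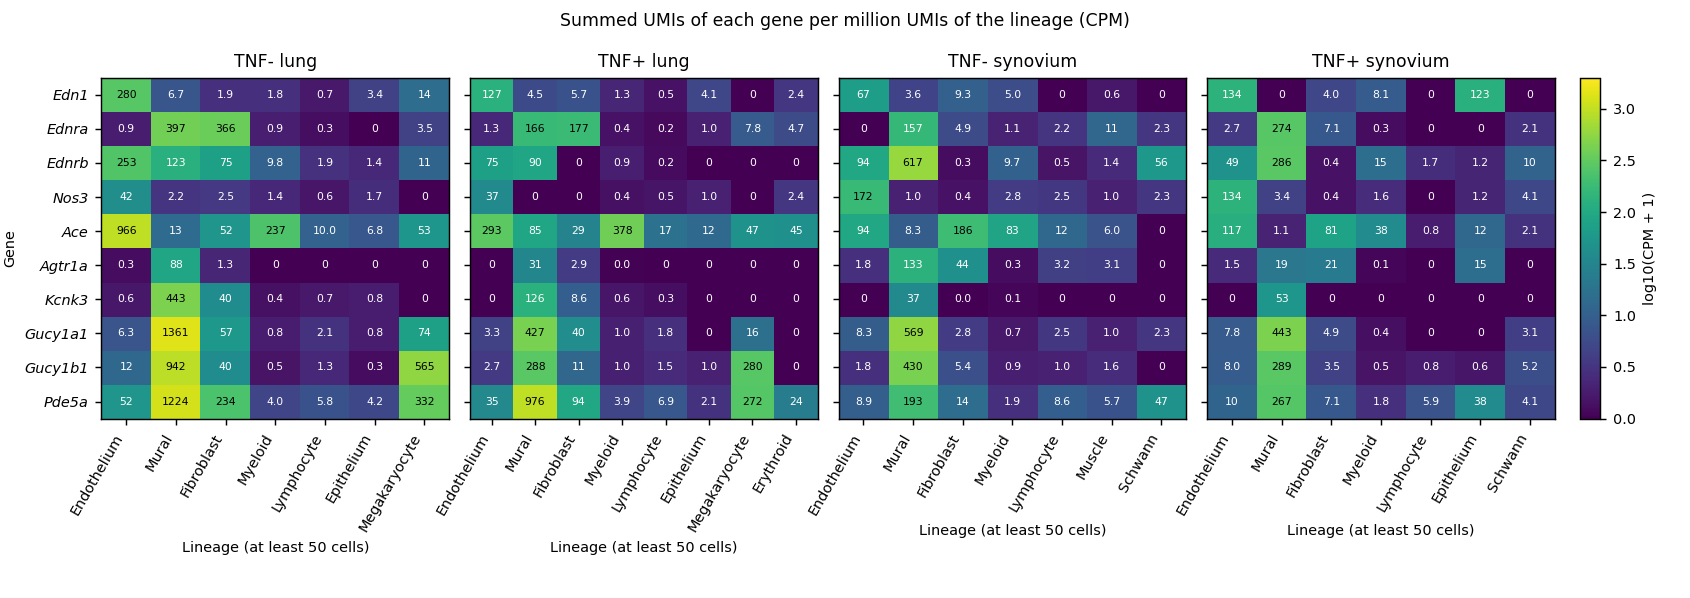
Level of each member (rows) in each lineage with at least 50 cells (columns) of the 4 libraries, as CPM of the summed UMIs, with the colour on a log10 scale of CPM + 1. Edn1 and Nos3 are highest in endothelium in each library, while Gucy1a1, Gucy1b1, Pde5a and Kcnk3 are highest in mural cells in each.

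Edn1, the gene for the constrictor peptide, was lower in TNF+ than TNF- lung endothelium and higher in TNF+ synovial endothelium. In lung endothelium it measured 279.6 CPM (271 to 288; 3899 UMIs) in TNF- cells against 127 CPM (109 to 146; 190 UMIs) in TNF+ cells. In synovial endothelium it measured 67.1 CPM (58.5 to 76.6; 218 UMIs) in TNF- cells against 134 CPM (123 to 145; 549 UMIs) in TNF+ cells. So TNF- synovial endothelium was the lowest of the 4 and TNF- lung the highest, and the intervals of the TNF+ endothelia overlapped. The log2 ratio was -1.14 (-1.36 to -0.93) in lung and 0.99 (0.77 to 1.23) in synovium, the latter just short of 2-fold.

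Endothelium held 98.4% of the Edn1 UMIs of the TNF- lung and 69.1% of those of the TNF+ lung. In the TNF- synovium it held only 28.5%, and fibroblasts, at 9.29 CPM but many more cells, held 61.9%. One synovial fibroblast cluster, led by Mrgprg, Sv2c and Smpd3, carried 368 of the 473 fibroblast UMIs at 29.7 CPM, and in the TNF+ library its 20 cells stood at 30.97 CPM. Endothelium held 55.0% in the TNF+ synovium, and epithelial cells, which were 143 cells there and 1 cell in the TNF- synovium, held 21.2% at 123 CPM (107 to 141), an interval that overlapped that of endothelium. Beyond the vessel wall, a TNF+ synovial cluster of macrophage or monocyte markers led by the osteoclast genes Acp5, Ctsk and Mmp9 stood at 74.4 CPM.

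Edn1 also differed between kinds of endothelium. In the TNF- lung it was at 14.4 CPM in aerocyte capillaries (the flat capillary cells of gas exchange), 225 CPM in vein cells and 345 CPM in cells of no named subtype. Aerocytes thus carried 0.821% of the endothelial Edn1 UMIs although they were 19.2% of the cells. In the synovium the genotypes differed in the capillary cluster. Capillary cells stood at 27.4 CPM (21.4 to 34.4; 72 UMIs in 531 cells) in TNF- and 87.2 CPM (76.5 to 98.9; 241 UMIs in 282 cells) in TNF+, a log2 ratio of 1.67 (1.29 to 2.07). Arterial cells stood at 288 CPM and 277 CPM, a log2 ratio of -0.05 (-0.34 to 0.24). Arterial cells also made up more of the endothelium, 13.7% of TNF- and 30.8% of TNF+ cells.

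**Figure D2:**
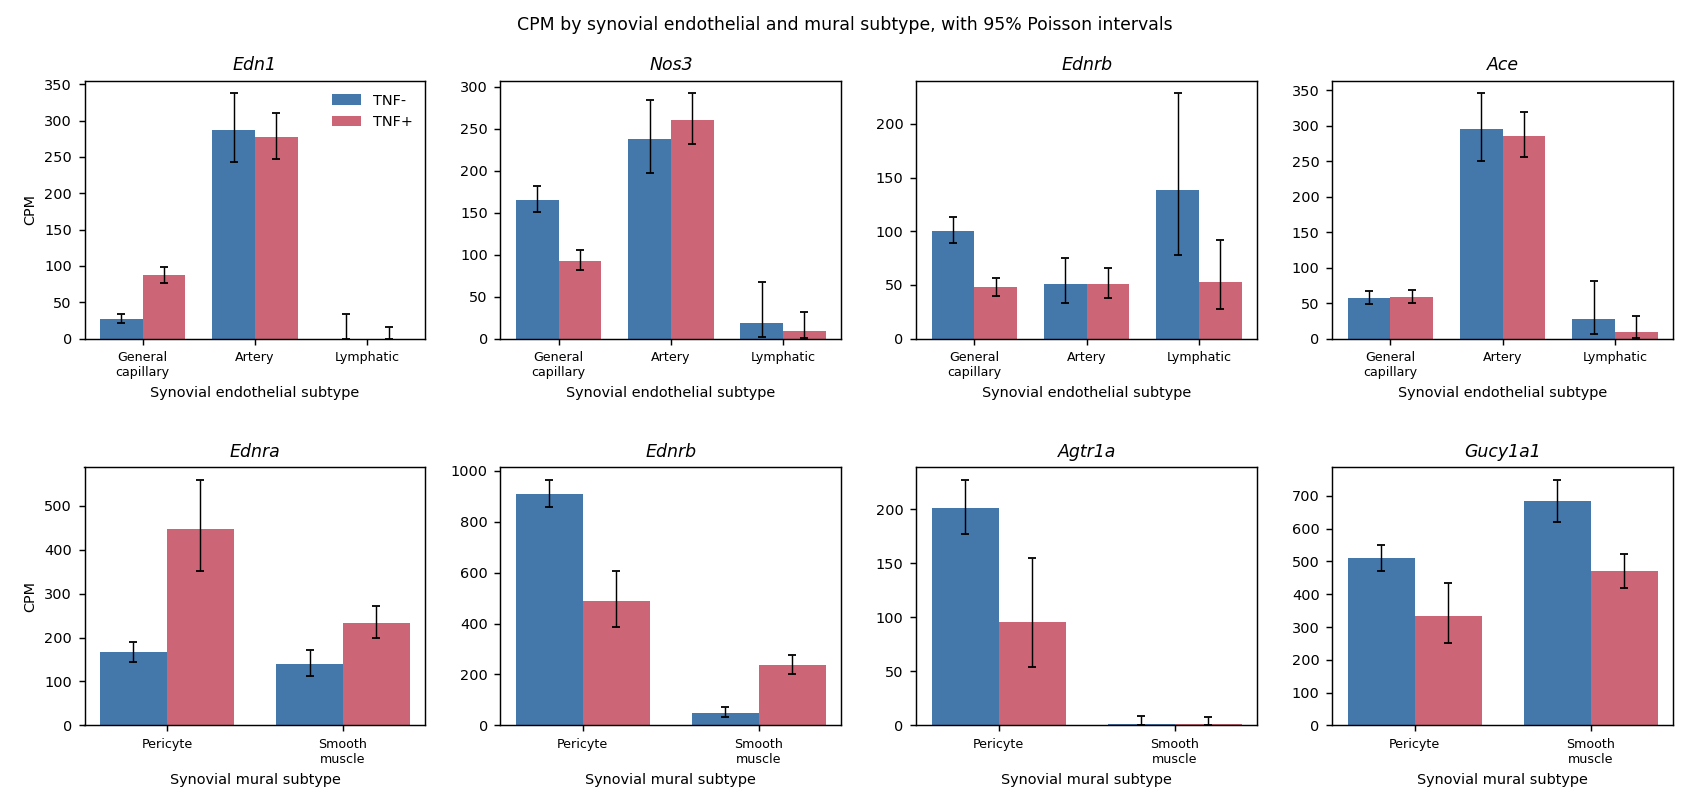
CPM of members in endothelial and mural subtypes of the synovium, TNF- and TNF+ side by side, with bars from 0 and 95% Poisson intervals. Edn1 differs in capillary cells (27.4 and 87.2 CPM) and overlaps in arterial cells (288 and 277 CPM), and Ednrb is lower in TNF+ pericytes but higher in TNF+ smooth muscle cells.

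Ednra, the receptor that mediates constriction, was found in mural cells of both tissues and in lung fibroblasts. Lung mural cells stood at 397 CPM (357 to 441) in TNF- mice and at 166 CPM (117 to 229) in TNF+ mice. Lung fibroblasts were at 366 CPM (345 to 388) and 177 CPM (136 to 227), so that mural cells and fibroblasts overlapped within each lung library. The log2 ratios were -1.26 (-1.79 to -0.77) in mural cells and -1.05 (-1.44 to -0.68) in fibroblasts.

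The synovium went the other way for Ednra. Synovial mural cells stood at 157 CPM (140 to 176; 303 UMIs) in TNF- mice and at 274 CPM (240.1 to 311; 239 UMIs) in TNF+ mice, a log2 ratio of 0.80 (0.55 to 1.05). Pericytes, the contractile cells of capillaries, were higher in TNF+ by a log2 ratio of 1.43 (1.03 to 1.81), from 166 CPM in 233 cells to 446 CPM in 37 cells. Smooth muscle cells were at 139.6 CPM in 59 cells and 233 CPM in 88 cells, a log2 ratio of 0.74 (0.36 to 1.12). Both mural subtypes were thus higher for Ednra in the TNF+ library. Their mix differed as well, with pericytes at 79.8% of TNF- and 29.6% of TNF+ mural cells and smooth muscle cells at 20.2% and 70.4%.

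Ednrb, the clearing receptor, came mostly from 1 kind of endothelium in the TNF- lung. Aerocytes, 436 of 2271 endothelial cells, carried 3421 (96.8%) of the endothelial Ednrb UMIs at 1535 CPM (1484 to 1587), against 8.60 CPM in endothelium of no named subtype. In the TNF+ lung 35 aerocytes were left, 8.88% of endothelial cells, at 334 CPM (271 to 408; 97 UMIs). Over lung endothelium Ednrb was at 253 CPM and 74.6 CPM, a log2 ratio of -1.76 (-2.05 to -1.49). Within the larger aerocyte cluster, 258 TNF- and 24 TNF+ cells, it was 1562 CPM and 354 CPM, a log2 ratio of -2.14 (-2.45 to -1.85), so the lower level held within aerocytes as well as through their smaller share. Median depth also differed between the libraries, and its part in this was not tested.

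Outside endothelium Ednrb marked other cells. Lung fibroblasts had 237 UMIs in the TNF- library, 230 of them in the cluster led by Hhip, Lgr6 and Aspn. They had 0 in the TNF+ library, where that cluster had 4 cells. With the 0 set to 3 UMIs (8.56 CPM) this is 8.75-fold lower, and the upper Poisson limit of the 0 is 10.5 CPM. Synovial mural cells stood at 617 CPM (582 to 653) in TNF- mice and at 286 CPM (252 to 324) in TNF+ mice, a log2 ratio of -1.11 (-1.31 to -0.91). The subtypes moved apart there. Pericytes were at 911 CPM (859 to 965) and 488 CPM (388 to 606), a log2 ratio of -0.90 (-1.24 to -0.58), while smooth muscle cells were at 50.1 CPM (34.5 to 70.3) and 238 CPM (204 to 277), a log2 ratio of 2.25 (1.71 to 2.84).

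Monocytes and macrophages also carried Ednrb. A lung cluster led by Ccr2 and F13a1 had 68 UMIs in 133 TNF- cells and 2 UMIs in 445 TNF+ cells. A synovial cluster led by Chil3, Plac8 and Ly6c2 stood at 24.7 CPM (20 UMIs) in TNF- mice and at 158 CPM (65 UMIs) in TNF+ mice, a log2 ratio of 2.68 (1.94 to 3.48). The lung and the synovial cluster thus differed in opposite directions, each on 1 pair of libraries, and their leading genes were not the same.

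**Figure D3:**
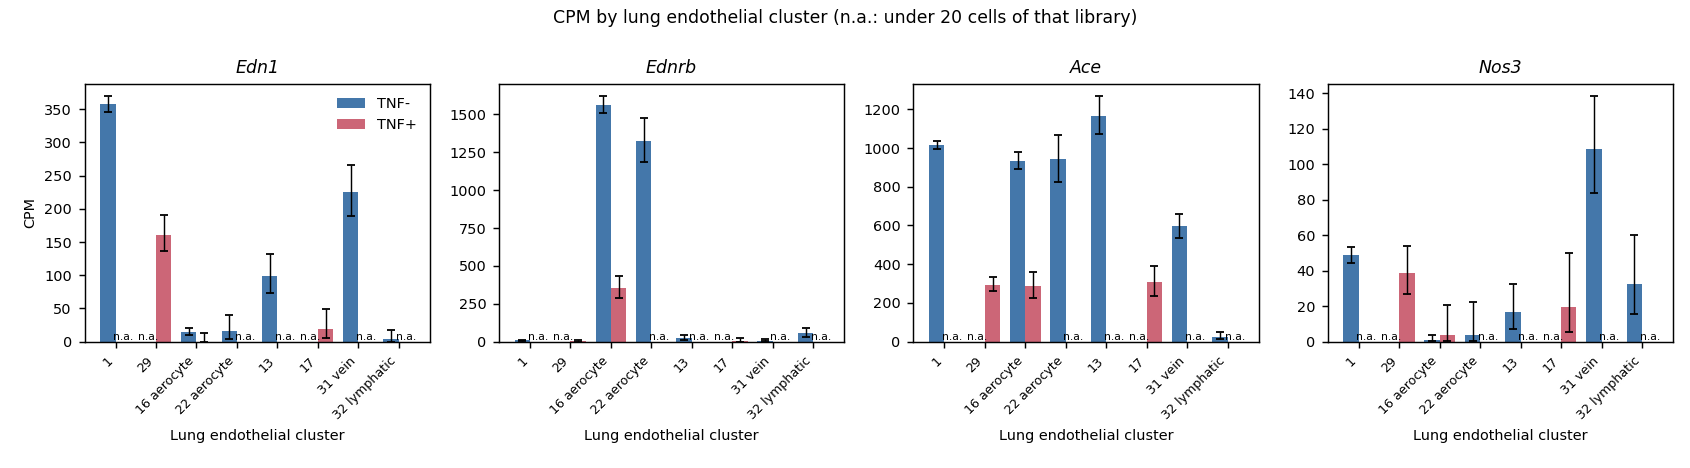
CPM of Edn1, Ednrb, Ace and Nos3 in each lung endothelial cluster, TNF- and TNF+ side by side, with bars from 0 and 95% Poisson intervals, where n.a. stands for under 20 cells of that library. Among the TNF- bars Ednrb is highest in the aerocyte clusters, with 1562 CPM in TNF- and 354 CPM in TNF+ cells of cluster 16, and Ace is near 300 CPM in each of the 3 TNF+ bars shown.

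Ace, the angiotensin-converting enzyme, had a different main cell source in TNF- and TNF+ libraries of both tissues. In the TNF- lung endothelium held 82.4% of Ace UMIs and myeloid cells 14.98%, and in the TNF+ lung endothelium held 2.29% and myeloid cells 94.5% (18194 of 19248 UMIs). Endothelial Ace measured 966 CPM (949.9 to 983; 13474 UMIs) in TNF- cells against 293 CPM (266 to 322; 440 UMIs) in TNF+ cells, a log2 ratio of -1.72 (-1.86 to -1.58). Myeloid Ace was at 237 CPM and 378 CPM. The whole lung stood at 304 CPM and 228 CPM, a log2 ratio of -0.42, and Ace was the one member of the lung within 2-fold.

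The myeloid Ace of the TNF+ lung came mostly from 1 cluster of monocytes. The lung cluster led by Cd300e and Treml4 had 37 TNF- and 2717 TNF+ cells, at 712 CPM and 604 CPM, a log2 ratio of -0.24 (-0.42 to -0.05). Per UMI, then, Ace was about level within this cluster, and the number of its cells differed. The cluster led by Ccr2 and F13a1 was at 169 CPM and 62.3 CPM, a log2 ratio of -1.44 (-1.65 to -1.23). A synovial cluster also led by Cd300e and Treml4 measured 752 CPM over 88 TNF- cells against 451 CPM over 188 TNF+ cells.

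Most synovial Ace came from fibroblasts in the TNF- library but not in the TNF+ library. Fibroblasts held 87.9% of TNF- Ace UMIs, at 186 CPM (182 to 189.6), and 12.4% of TNF+ ones, at 80.9 CPM (69.6 to 93.5), a log2 ratio of -1.20 (-1.42 to -0.99). This was not shared by all fibroblast clusters: the cluster led by Grm8 and Cxcl14 had a log2 ratio of -1.19 (-1.69 to -0.73), but that led by Gdf10 and C4b stood at 119.8 CPM and 121 CPM, and the Mrgprg cluster at 272 CPM and 353 CPM. A cluster led by Saa3 and Mmp13, with fibroblast markers but left unnamed, had 231 of its 233 cells in the TNF+ library and stood at 26.2 CPM. Synovial endothelium was at 93.9 CPM and 117 CPM, with arterial cells at 295 CPM and 286 CPM and capillary cells at 57.7 CPM and 58.6 CPM.

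**Figure D4:**
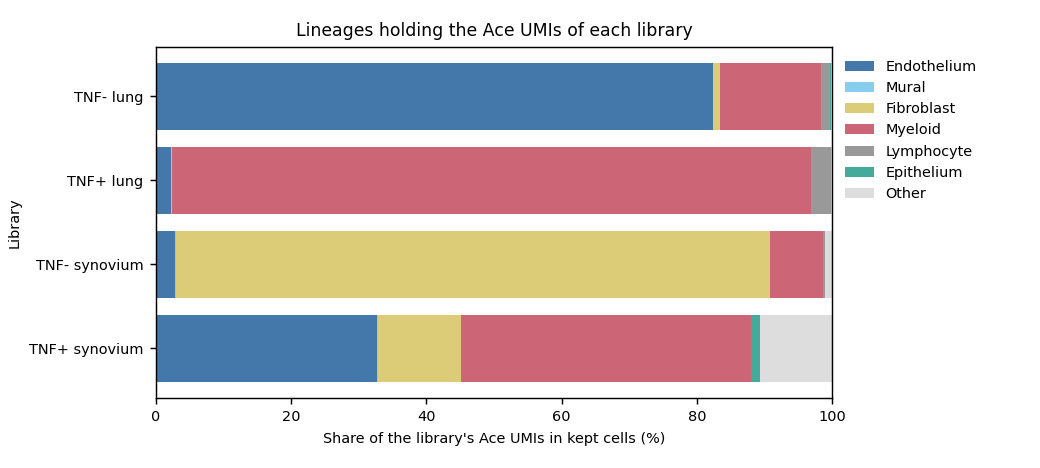
Share of each library's Ace UMIs held by each lineage, in percent. Lung Ace moves from endothelium (82.4%) in TNF- to myeloid cells (94.5%) in TNF+, and synovial Ace from fibroblasts (87.9%) to a spread over myeloid cells (42.8%), endothelium (32.7%) and fibroblasts (12.4%).

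Agtr1a, the angiotensin II receptor, was scarce in lung and lower in TNF+ mural cells of both tissues, in lung on few UMIs. In lung mural cells it had 79 UMIs in TNF- (88.2 CPM, 69.8 to 109.9) and 7 UMIs in TNF+ (31.5 CPM, 12.7 to 64.9), all 7 in a sub-cluster set apart by immune genes that is described below, and the log2 ratio of -1.49 came within 2-fold under 3 of 6 alternatives, once at 0.22. Synovial mural cells measured 133 CPM (117 to 150.0) for Agtr1a in TNF- and 19.5 CPM (11.3 to 31.2) in TNF+ mice, a log2 ratio of -2.77 (-3.57 to -2.06). Among mural cells of TNF- mice it was a gene of pericytes, which carried 75 of the 79 lung mural UMIs and 255 of the 256 synovial ones. The lung libraries held 42 TNF- and 1 TNF+ cells of pericyte clusters. Within synovial pericytes the log2 ratio was -1.08 (-1.91 to -0.35), from 201 CPM to 95.2 CPM, and smooth muscle cells had 1 UMI in each library, so the smaller share of pericytes and a lower level in them both entered the mural value. Outside mural cells, synovial fibroblasts, at 43.9 CPM and 21.2 CPM, held 87.7% of the TNF- UMIs and 29.1% of the TNF+ ones. In the TNF+ synovium unnamed clusters held 38.8%, epithelial cells 15.2% and mural cells 10.3%.

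Nos3, the endothelial nitric oxide synthase, differed little within endothelium. In lung endothelium it measured 42.1 CPM (38.8 to 45.6; 587 UMIs) in TNF- cells against 36.6 CPM (27.6 to 47.7; 55 UMIs) in TNF+ cells, a log2 ratio of -0.20 (-0.63 to 0.20). Synovial endothelium was at 172 CPM (158 to 187) and 134 CPM (123 to 145), a log2 ratio of -0.36 (-0.54 to -0.19). The interval in lung takes in 0 and that in synovium does not, and both stop short of 2-fold. Capillary cells of the synovium had the lower TNF+ value, 166 CPM against 92.9 CPM with a log2 ratio of -0.83 (-1.06 to -0.61), while arterial cells stood at 238 CPM and 261 CPM. Lung aerocytes had 3 Nos3 UMIs (1.35 CPM) in 436 TNF- cells, and lung vein cells stood at 109 CPM (83.7 to 138).

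The cyclase subunits Gucy1a1 and Gucy1b1 had similar ratios in mural cells. Gucy1a1 in lung mural cells measured 1361 CPM (1286 to 1440; 1219 UMIs) in TNF- cells against 427 CPM (346 to 522; 95 UMIs) in TNF+ cells, a log2 ratio of -1.67 (-1.99 to -1.37). Gucy1b1 there was at 942 CPM (879.8 to 1008; 844 UMIs) and 288 CPM (222 to 367; 64 UMIs), a log2 ratio of -1.71 (-2.10 to -1.34). Both subunits were thus past 2-fold lower by nearly the same factor. In synovial mural cells the log2 ratios were smaller, -0.36 (-0.53 to -0.19) for Gucy1a1, from 569 CPM to 443 CPM, and -0.57 (-0.78 to -0.37) for Gucy1b1, from 429.8 CPM to 289 CPM. In the TNF- lung 42 pericytes stood at 3802 CPM for Gucy1a1 and 45 smooth muscle cells at 387 CPM. For Gucy1b1 the same cells stood at 2621 CPM and 287 CPM. Megakaryocytes held Gucy1b1 with few UMIs of Gucy1a1. They measured 565 CPM (481 to 659.9) for Gucy1b1 in TNF- mice and 279.8 CPM (196 to 387) in TNF+ mice, the latter overlapping mural cells, and had 21 and 2 UMIs of Gucy1a1.

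Single cells with UMIs of a pair of members were counted as well. Of lung mural cells 86 of 129 TNF- cells (66.7%, 57.8 to 74.7) and 16 of 122 TNF+ cells (13.1%, 7.69 to 20.4) had a UMI of both subunits, and of synovial mural cells 216 of 292 (74.0%, 68.5 to 78.9) and 73 of 125 (58.4%, 49.2 to 67.1). In TNF- lung mural cells 91.5% of those with Gucy1a1 also had Gucy1b1, against 72.1% of all, and in TNF+ ones 30.8% against 23.8%. Ligand and clearing receptor were mostly apart in TNF- lung endothelium: 49 of 2271 cells had a UMI of both Edn1 and Ednrb, against 895 with Edn1 and 413 with Ednrb. There 11.9% of Ednrb cells also had Edn1, against 39.4% of all endothelial cells. These shares were closer in TNF+ lung endothelium, at 8.70% and 10.9%. In synovial endothelium they were 8.02% and 10.4% in TNF- and 28.3% and 35.5% in TNF+. Nos3 and Edn1 were found together in 10.6% of TNF- and 3.05% of TNF+ lung endothelial cells and in 4.87% and 21.0% of synovial ones. These shares move with depth.

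Pde5a, which ends the cyclic GMP signal, was highest in mural cells throughout. In lung mural cells it measured 1224 CPM (1152 to 1298) in TNF- cells against 976 CPM (850.3 to 1115) in TNF+ cells, a log2 ratio of -0.33 (-0.54 to -0.12). TNF- synovial mural cells measured 193 CPM (174 to 213) and TNF+ ones 267 CPM (234 to 303), a log2 ratio of 0.47 (0.23 to 0.71). In the synovium the subtypes themselves stood closer, pericytes at 142 CPM and 119 CPM and smooth muscle cells at 291 CPM and 302 CPM, each pair with overlapping intervals, and smooth muscle cells, with the higher level, had the larger share in TNF+. TNF- lung pericytes stood at 4081 CPM and smooth muscle cells at 278 CPM.

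Kcnk3, the leak channel, stood at 443 CPM (401 to 489; 397 UMIs) in TNF- and 126 CPM (83.7 to 182; 28 UMIs) in TNF+ lung mural cells, a log2 ratio of -1.82 (-2.42 to -1.26). Synovial mural cells stood at 36.8 CPM (28.7 to 46.4) and 52.7 CPM (38.6 to 70.3), with overlapping intervals. Lung mural cells thus had the higher Kcnk3 level of the tissues in both genotypes. Pericytes (782 CPM) and smooth muscle cells (325 CPM) of the TNF- lung both carried it.

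The lung mural values rest on cells of uneven kind. Of the 122 TNF+ lung mural cells, 84 fell in a sub-cluster with a median of 618.5 UMIs that within mural cells was set apart by Ccl2, Lilrb4a, Cd48 and Cxcl10, genes of immune or activated cells, and that held 4 TNF- cells, so that it may be that library rather than a cell kind. Pde5a there was at 2583 CPM (183 of the 217 TNF+ UMIs), and Ace at 226 CPM (16 of 19). Gucy1a1 was at 790 CPM (56 of 95) and Gucy1b1 at 466 CPM (33 of 64). Lyz2, a myeloid gene, measured 116 CPM in TNF- lung mural cells and 3953 CPM in TNF+ ones. Without this sub-cluster and one led by the Schwann cell genes Sox10 and Lgi4, 115 TNF- and 21 TNF+ cells were left. The log2 ratio was then -2.44 (-3.01 to -1.93) for Pde5a in place of -0.33, -2.31 for Gucy1a1, -2.08 for Gucy1b1, -1.53 for Kcnk3, -1.32 for Ednra and 0.10 for Ace (12 and 2 UMIs) in place of 2.67. The lower TNF+ values of Gucy1a1, Gucy1b1, Kcnk3 and Ednra stood without those cells, and the higher Ace did not. For Gucy1a1 and Gucy1b1 the TNF+ cells left were at 281 CPM and 229 CPM, below the immune sub-cluster left out. Its removal thus lowered these ratios and is no separate support for them. Pde5a, Gucy1a1 and Gucy1b1 were highest in pericytes among TNF- lung mural cells, and whether that sub-cluster holds pericytes was not tested. The cells left differ in subtype, however, with 42 pericytes and 45 smooth muscle cells in TNF- mice against 1 pericyte and 14 smooth muscle cells in TNF+ mice. Less RNA of a gene per pericyte and fewer pericytes cannot be told apart here, and with each library clustered by itself Ednra, Gucy1a1 and Gucy1b1 came within 2-fold.

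Lung endothelium had a like cluster. Of 394 TNF+ cells, 259 (10 TNF- cells) lay in a cluster with a median of 652 UMIs, which held Pecam1 but was set apart within endothelium by Cxcl13, Ccl8, Jchain and C1qc, and may be that library rather than a cell kind. Lyz2 measured 129 CPM in TNF- lung endothelium and 1747 CPM in TNF+. Without it 135 TNF+ cells were left, with a median of 10175 UMIs. The log2 ratios were then -0.96 (-1.18 to -0.75) for Edn1, short of 2-fold, -1.57 (-1.85 to -1.29) for Ednrb, -1.73 (-1.88 to -1.58) for Ace and -0.10 (-0.54 to 0.32) for Nos3. Ace, Ednrb and Edn1 were lower in TNF+ among these cells too, Edn1 by slightly less. The cells left lay mostly in different clusters, since cluster 1 held 1415 TNF- and 4 TNF+ cells and cluster 29 held 4 TNF- and 89 TNF+ cells.

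**Figure D5:**
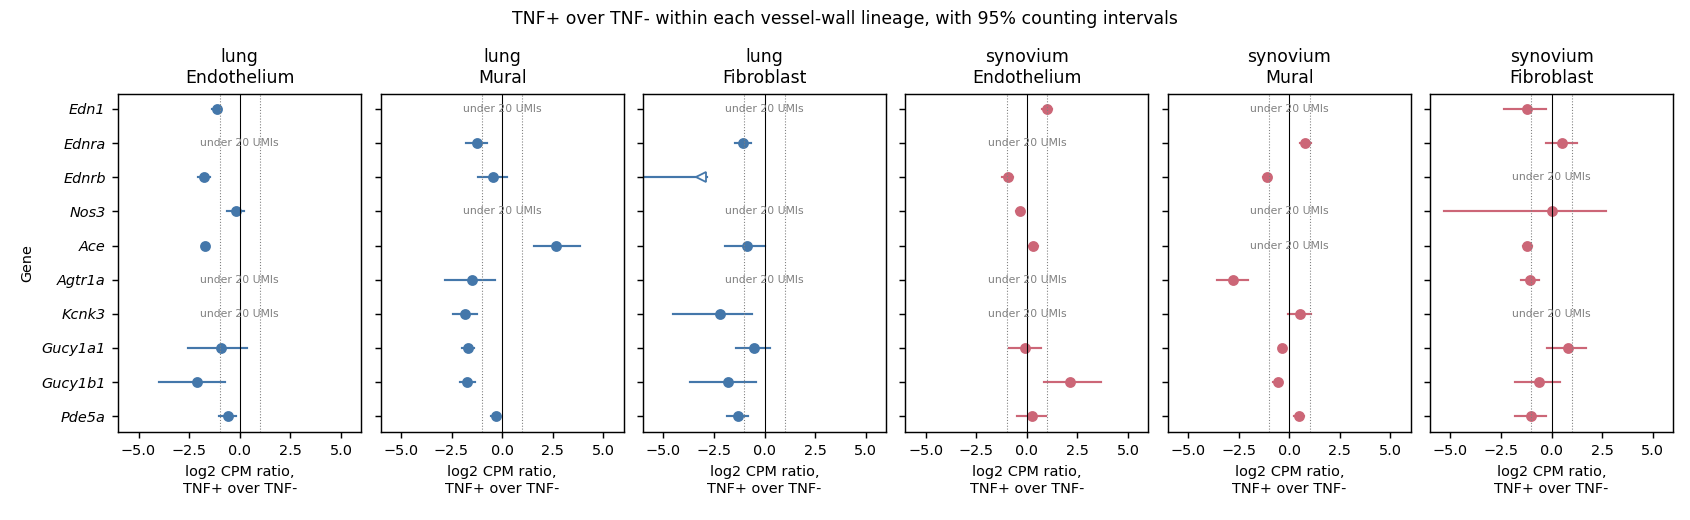
Log2 ratio of CPM, TNF+ over TNF-, for each member in endothelium, mural cells and fibroblasts of both tissues, with 95% counting intervals, dotted lines at 2-fold and an open triangle for a bound. Gucy1a1, Gucy1b1 and Kcnk3 lie past 2-fold lower in lung mural cells (-1.67, -1.71 and -1.82) and within 2-fold in synovial ones.

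A gene was counted as past 2-fold where the log2 ratio was at least 1 in size with at least 20 UMIs over both libraries. In the whole lung 9 of 10 members were lower in TNF+ and 0 higher, with a median log2 ratio of -3.54 against -0.32 for all genes, where 25.5% of genes were lower and 5.79% higher. Edn1 (-4.50) and Ednrb (-5.11) were farthest. In such sums fewer cells of a type and less RNA per cell cannot be told apart. In the whole synovium 2 were higher, Edn1 at 1.59 and Nos3 at 1.24, and 2 lower, Ace at -1.66 and Agtr1a at -2.74, with a median of 0.26 against -0.17, where 11.8% of genes were higher and 21.9% lower. Nos3 came within 2-fold with a mean over cells and after thinning, down to 0.18.

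The lung lineages were counted next, with no test of the members against other genes. Lung endothelium had 4 of 7 countable members lower (Edn1, Ednrb, Ace and Gucy1b1, the last on 161 and 4 UMIs) and 0 higher, median -1.14 against 0.03, where 8.78% of genes were lower and 10.1% higher. Lung mural cells had 5 of 8 lower (Ednra, Agtr1a, Kcnk3, Gucy1a1 and Gucy1b1) and 1 higher (Ace), median -1.37 against -0.08, where 12.3% were lower and 8.68% higher. Lung fibroblasts had 5 of 7 lower (Ednra, Ednrb, Kcnk3, Gucy1b1 and Pde5a) and 0 higher, median -1.31 against -0.02, where 11.3% were lower and 9.48% higher. After thinning the endothelial count was 2. The fibroblast values rest on 89 TNF+ cells and the cluster led by Hhip, Lgr6 and Aspn, which had 94 TNF- and 4 TNF+ cells, and with each library clustered by itself Ednrb, Kcnk3, Gucy1b1 and Pde5a were higher in TNF+.

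The synovial lineages did not share one direction. Synovial endothelium had 1 of 7 higher (Gucy1b1, 6 and 33 UMIs) and 0 lower, median 0.23 against -0.11, where 7.37% of genes were higher and 10.3% lower. Synovial mural cells had 2 of 7 lower (Ednrb and Agtr1a) and 0 higher, median -0.36 against -0.32, where 21.3% were lower and 5.18% higher, so that a share of 2 in 7 is near the background. Synovial fibroblasts had 3 of 8 lower (Edn1, Ace and Agtr1a) and 0 higher, median -0.80 against -0.10, where 12.3% were lower and 11.4% higher. Agtr1a, at -1.05, came within 2-fold under 4 of 9 alternatives, and in the 3 largest fibroblast clusters it was at -0.50, 0.43 and -0.51, with intervals that take in 0. Relative to the median of all genes, synovial mural Ednra and Pde5a stood higher still, since that median was -0.32.

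A UMI in a cell depends on its depth, so shares were also taken after thinning each cell to 1000 UMIs. Edn1 was found in 39.4% of 2271 TNF- and 10.9% of 394 TNF+ lung endothelial cells, and after thinning in 17.2% (15.6 to 18.9) of 2024 and 10.7% (6.35 to 16.6) of 159 cells, with 247 and 235 shallower cells left out. In synovial endothelium it was found in 10.4% and 35.5%, and after thinning in 3.37% (2.10 to 5.11) of 623 and 10.3% (7.65 to 13.5) of 446 cells, with 13 and 2 left out. Thinning thus brought the intervals in lung to touch and kept the order in synovium. In lymphocytes, which should lack the gene, Edn1 was found in 0.57% and 0.342% of lung cells and in 0 synovial cells, at median depths of 5966 to 10765.5 UMIs. After thinning, 0 of 333 TNF- and 0 of 178 TNF+ synovial lymphocytes had it, where a floor of 3 cells would be 0.901% and 1.69%.

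Mural Gucy1a1 was found in 72.9% of TNF- and 42.6% of TNF+ lung cells and in 82.2% and 80.8% of synovial ones. After thinning it was in 52.0% of 102 and 25.0% of 28 lung cells, with 27 and 94 left out, and in 44.5% of 274 and 34.2% of 120 synovial cells. Lymphocytes had it in 1.43% and 1.31% of lung cells and 0.599% and 0 of synovial cells. Ace was found in 85.0% and 35.8% of lung endothelial cells, and after thinning in 58.9% (56.7 to 61.0) and 20.1% (14.2 to 27.2), against 5.38% and 6.85% of lung lymphocytes. Its share of lung myeloid cells was 17.6% in TNF- and 29.4% in TNF+ after thinning, with 26 and 605 left out. Ace was thus above the lymphocyte level in both lineages and genotypes.

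The genes with the pattern most like a member's, by Pearson's r of log2(CPM + 1) over 29 points of a lineage in a library, were mostly genes of the same cells. The points share libraries, depth and cells, so r is a description. Gucy1a1 and Gucy1b1 were among each other's closest 3 of all genes (r = 0.93), and both were among those of Pde5a (0.86 and 0.87). Gucy1b1 was closest to Myl9 (0.95), a myosin light chain of smooth muscle, Kcnk3 to Myocd (0.95), a coactivator of smooth muscle genes, and Ednra to Mark1 (0.95). Nos3 was close to the endothelial Robo4 (0.93), and Agtr1a to Aoc3 (0.90) and Tbx18 (0.88), both known from pericytes or vascular muscle. Ace had no close match, with Tapbp at 0.80 as the highest. Edn1 was closest to Cngb1 (0.84) and Ednrb to Gm10687 (0.87).

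Related genes of the same pathways numbered 37. Of these 31 were countable in the whole lung, and 25 were lower and 0 higher in TNF+, a median of -2.90. For all genes there the median was -0.32, with 25.5% lower and 5.79% higher. The farthest were Npr3 (-6.83), the clearance receptor for natriuretic peptides, Agt (-6.34), the angiotensin precursor, and Edn3 (-5.77). In lung endothelium 7 of 20 were lower and 2 higher, where 8.78% of all genes were lower and 10.1% higher. Npr3 (-4.43), Cav1 (-1.58), the caveolar protein that binds the Nos3 product, and Pde3a (-1.53) were the lowest, and Nos2 (2.90; 106 and 85 UMIs), the inducible nitric oxide synthase, and Npr2 (1.46) were higher. Lung mural cells had 10 of 23 lower, led by Abcc9 (-2.69; 52 and 2 UMIs), Nostrin (-2.44) and Kcnmb1 (-1.43; 65 and 6 UMIs), and Enpep (1.33) higher. Of all genes there 12.3% were lower and 8.68% higher. Abcc9, a potassium channel subunit, had its highest CPM in fibroblasts in both lung libraries. Lung fibroblasts had 10 of 26 lower, among them Enpep (-1.89), Cav1 (-1.85) and Agt (94 and 0 UMIs, 3.47-fold lower with the 0 set to 3 UMIs). They had 4 higher, led by Nostrin (1.55), Npr1 (1.53; 25 and 8 UMIs) and Ddah1 (1.17; 16 and 4 UMIs, with an interval that takes in 0). Of all genes there 11.3% were lower and 9.48% higher.

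In the whole synovium 14 of 35 related genes were lower, led by Mas1 (-4.00; 37 and 1 UMIs), Enpep (-3.10) and Edn3 (-2.86). Another 5 were higher, led by Nos2 (2.18), Cav1 (1.74) and Gch1 (1.70), which makes a cofactor of nitric oxide synthases. Of all genes there 21.9% were lower and 11.8% higher. Synovial endothelium had 5 of 23 higher, led by the mural genes Mrvi1 (4.05; 1 and 21 UMIs), Abcc9 (2.74; 9 and 76 UMIs) and Kcnj8 (1.81; 7 and 31 UMIs). It had 3 lower, Kcnma1 (-3.24), Kcna5 (-1.44) and Mme (20 and 0 UMIs, 8.42-fold lower with the 0 set to 3 UMIs). Of all genes there 7.37% were higher and 10.3% lower. The mural marker list of 24 genes summed to 265 CPM in TNF- and 917 CPM in TNF+ synovial endothelium, and its part in these and in the higher Gucy1b1 was not tested. Synovial mural cells had 7 of 23 lower, led by Nostrin (-3.17), Abcc9 (-3.12) and Kcnj8 (-2.76), and Gch1 (2.56; 6 and 16 UMIs) higher. Of all genes there 21.3% were lower and 5.18% higher, so that a share of 7 in 23 is not far from the background. Synovial fibroblasts had 9 of 31 higher, among them Edn3 (2.78; 36 and 11 UMIs) and Npr3 (2.12), and 4 lower, led by Enpep (-1.55), Pde3a (-1.35) and Gucy1a2 (-1.26). Of all genes there 11.4% were higher and 12.3% lower. Across the 4 libraries Prkg1, the cyclic GMP kinase, was highest in mural cells and Ece1, the enzyme that makes active endothelin, in endothelium.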

How the data were processed

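Single-cell suspensions of lung and synovium from TNF- and TNF+ mice were captured with 10x Genomics 3′ chemistry, 1 library per group. The authors deposited raw UMI counts per gene and called cell, made with Cell Ranger (version 7.0.1 in the submitters' processing notes) against the 10x mouse reference of build GRCm38 at default settings, which count introns. The human transgene is not in that reference, and no deposited file used here assigns cells to types. There were 0 other columns of per-sample values.

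Cells with 200 to 5000 genes and at most 20% mitochondrial UMIs were kept. The libraries of a tissue were clustered together (10000 UMIs per cell, log scale, 2000 variable genes without the members and related genes, 30 components, 20 neighbours, Leiden resolution 0.8) with python 3.11.15, numpy 2.4.6, scipy 1.17.1, pandas 2.3.3, scikit-learn 1.9.0, leidenalg 0.10.2 and scanpy 1.11.5, and plots used matplotlib 3.10.9. Harmony, which the study used, was not run. Clusters were named from 262 marker genes, where a name needed at least 3 markers 2-fold above the other clusters and seen in 10% of cells. These limits, a limit of 3 keratins and the use of subtype markers for the endothelial name were set after the data were seen. Names stand for cells like that type and may differ from the study's. Unnamed clusters held 243 TNF- and 519 TNF+ synovial cells. Doublets were removed only by the limit on genes, and as an alternative the 107 to 825 cells per library with the highest Scrublet scores were removed.

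For each lineage of a library, a gene's UMIs were totalled and scaled to 1000000 UMIs over all genes (CPM). The 95% intervals hold counting error alone. A count of 0 was set to a floor of 3 UMIs, so a fold given with it is not the limit of an interval. A ratio needed at least 20 UMIs over both libraries and a lineage at least 50 cells in each. With 1 library per group there was no test. Shares of cells used lymphocytes as the type that should lack the members, since synovial T cells were not separable from innate lymphoid cells. The code was tested on made-up counts with known changes. Named were all members, and of the 37 related genes the up to 3 farthest past 2-fold in each direction of the comparisons of whole tissue, endothelium, mural cells and fibroblasts (those of other lineages are not described), and for each member the 3 genes most alike among those with at least 100 UMIs. The clusters named for their values were chosen after their values were seen. The members and lists were chosen with earlier results of these data known. Alternatives were other scalings, cell weights, filters, minimum UMIs, doublet removal and clusterings. Leaving out clusters led by immune or Schwann cell genes was added after the data were seen. A related gene named by this rule is not reported here.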

Additional observations from a re-analysis of the deposited data

Results flagged for a closer look

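In 5 cases a member's log2 ratio of TNF+ over TNF- had opposite signs in the same lineage of lung and synovium, with both counting intervals apart from 0. Each of these ratios had at least 20 UMIs over both libraries. Opposite signs also occurred where an interval takes in 0, as for Kcnk3 in mural cells (-1.82 in lung and 0.52 in synovium). Each tissue has 1 pair of libraries, so the difference between tissues was not tested. In endothelium Edn1 was at -1.14 in lung and 0.99 in synovium, Ace at -1.72 and 0.32, and Gucy1b1, on 161 and 4 UMIs in lung and 6 and 33 UMIs in synovium, at -2.12 and 2.12. In mural cells Ednra was at -1.26 in lung and 0.80 in synovium, and Pde5a at -0.33 and 0.47. With each library clustered by itself the lung value of Pde5a was 1.10, so its signs no longer differed. Beside these, lung endothelial cells had a median of 5629 UMIs in TNF- and 785 in TNF+, and synovial ones 4655.5 and 7812.5.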

How the results depend on the processing

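With 1 library per group, none of these values has a replicate, and no library could be left out. No paired analysis was possible because the groups compared share fewer than 2 replicate numbers. Of the log2 ratios of members under the alternatives, 378 stayed within their counting interval and 148 left it. A further 9, of ratios past 2-fold, changed sign, all in the lung, and the cause was not tested. For fibroblasts they were Ednrb at 3.38 with each library clustered by itself, Kcnk3 at 1.67 with the stricter filter and 4.28 with each library clustered by itself, Gucy1b1 at 1.34 and 0.88 under the same settings, and Pde5a at 1.02 and 0.17. The cluster led by Hhip, Lgr6 and Aspn lost its fibroblast name under both settings. For mural cells they were Ace at -1.44 with no filter on cells and Agtr1a at 0.22 with each library clustered by itself. Ratios within 2-fold changed sign in both tissues, among them Pde5a in lung mural cells (1.10 with each library clustered by itself), Gucy1a1 in lung endothelium (0.72 with a mean over cells) and synovial endothelium (2.25 with the stricter filter), and after thinning Ednrb in the whole synovium (-0.73) and Kcnk3 in synovial mural cells (-0.68). The number of members past 2-fold in lung endothelium was 2 in place of 4 after thinning, with Edn1 at -0.70. In synovial endothelium it was 1, and 2 with median-of-ratios scaling, with each library clustered by itself or with a minimum of 5 UMIs, 3 with a mean over cells, 4 with the stricter filter or with doublets removed, and 0 with a minimum of 100 UMIs. In synovial fibroblasts it was 3, and 5 with no filter on cells. With unnamed clusters given their nearest name, added after seeing the data, it was 3 in synovial endothelium and 6 in synovial fibroblasts. Of members highest in mural cells, 6 in each lung library, 0 remained countable in the TNF- lung with doublets removed (37 cells) and in the TNF+ lung after thinning (28 cells) or with the stricter filter (7 cells), since these fell under 50 cells, and endothelium of the thinned TNF+ lung then had 6 in place of 2. For the same reason thinning and doublet removal gave no values in lung fibroblasts, and thinning, the stricter filter, doublet removal and leaving out sub-clusters gave no counts in lung mural cells. Ednrb in synovial mural cells came within 2-fold with median-of-ratios scaling and with no filter on cells, Ace in synovial fibroblasts with each library clustered by itself, and Ednra, Gucy1a1 and Gucy1b1 in lung mural cells likewise. With a mean over cells this held for Pde5a in the whole lung, for Gucy1b1 in lung endothelium, for Gucy1a1 and Agtr1a in lung mural cells and for Nos3 in the whole synovium, the last also after thinning. Agtr1a in lung mural cells also came within 2-fold with no filter on cells, and Edn1 in lung endothelium without the cluster led by immune genes. Pde5a in lung fibroblasts stayed past 2-fold in the same direction under 2 of 7 alternatives and Agtr1a in synovial fibroblasts under 5 of 9.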
